A study of Mus musculus with 8 samples.

Results

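A set of 9 genes that encode secreted factors of senescent cells were examined in skeletal muscle of aged mice with and without GRSF1, a mitochondrial RNA-binding protein. They are the cytokine genes *Il6*, *Tnf*, *Il1a*, *Il1b* and *Il10*, the growth factor gene *Tgfb1*, and the genes *Mmp3*, *Timp1* and *Igfbp3*, whose products act on the extracellular matrix and on insulin-like growth factors. The genes were chosen by name, and all array probes whose accession is a mouse RefSeq transcript of one of them were taken. The 9 are among 22911 genes named on the array, and they have 13 of its 56605 probes, with 2 probes each for *Il6*, *Tnf*, *Il1b* and *Tgfb1* and 1 probe for each other gene. RNA was measured in 3 Grsf1cKO mice and 3 wild-type (WT) mice, all male and 17 months old. Grsf1cKO mice derive from the Grsf1tm1a allele: FLPo removed its LacZ and Neo cassettes, which left exons IV and V of *Grsf1* between LoxP sites, and Myf5Cre deleted these exons. Myf5Cre is active in muscle precursors, so that fibroblasts, blood vessels and immune cells of the muscle can keep *Grsf1*, and the labels state no allele of the WT mice. The labels name the muscle as the vastus intermedius (VI), whereas the methods of the study name the rectus femoris (RF).

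Senescent cells stop dividing but stay metabolically active and release cytokines, growth factors, proteases and protease inhibitors, together called the senescence-associated secretory phenotype. IL-1 alpha acts upstream of much of it, and NF-kappaB, AP-1 and C/EBP beta drive transcription of many of its genes, among them *Il6*. In skeletal muscle these factors are made mainly by macrophages, fibroblasts and other mononuclear cells, while contracting fibers can also release IL-6. In RNA of whole muscle, fewer cells of a type and less RNA per cell cannot be told apart.

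Grsf1cKO mouse 1 and WT mouse 1 each have a repeat array, so that 8 arrays cover the 6 mice. The log2 signal of *Grsf1* was 12.15, 12.02 and 12.08 in Grsf1cKO mice 1, 2 and 3, and 14.30, 14.25 and 14.27 in WT mice 1, 2 and 3, which fits the labels. The repeat array of Grsf1cKO 1 stood apart, with 88.9% of its spots well above background by the scanner software's flag against 66.3% to 73.1% on the other arrays. The first quartile of its processed signal was 55.5, against 9.68 to 15.7 on the others. Slide 1 held the array of WT 2 and the first one of WT 1, and slide 2 held the rest. Values below are log2 signals after quantile normalization of all arrays, averaged over the arrays of a mouse. The summed signal of 12 skeletal muscle markers was even, at 22.02 to 22.07 on the log2 scale in the 6 mice.

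No secreted factor was called changed between Grsf1cKO and WT muscle. Testing needed a signal well above background in 3 or more mice, which held for 9 of the 13 probes and 6 of the 9 genes. The tested genes were *Il6*, *Tnf*, *Tgfb1*, *Mmp3*, *Igfbp3* and *Timp1*, and the genes without a tested probe were *Il1a*, *Il1b* and *Il10*. A call in limma needed a fold change above 1.5 together with an unadjusted p below 0.01 and, after Benjamini-Hochberg adjustment, a p below 0.2, and 0 of the 9 tested probes met these criteria. Of all 38888 tested probes, 3 met them, or 0.00771%, 1 with more and 2 with less signal in Grsf1cKO muscle. At an unadjusted p under 0.05 in limma, 1 member probe had less signal in Grsf1cKO muscle and 0 had more, where 2.96% and 1.29% of all tested probes did. That probe was the brighter one of *Tnf*. A z-test on z-scores used the same fold changes and criteria. It could call none of the 9 tested member probes, because the largest difference was 1.46-fold, below the 1.5 needed. Grsf1cKO and WT mice were fully separated for 2 of the 9 member probes, and for 9.35% of all tested probes with a value in every mouse. With only the first array of each mouse, 1 of 10 tested member probes separated them, and so did 9.14% of all probes tested on those arrays with a value in every mouse. Among the 9 probes, 4 had a mean higher in Grsf1cKO and 5 a mean lower in Grsf1cKO. With 3 mice of each genotype an exact 2-sided permutation test cannot give a p below 0.1.

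**Figure D1:**
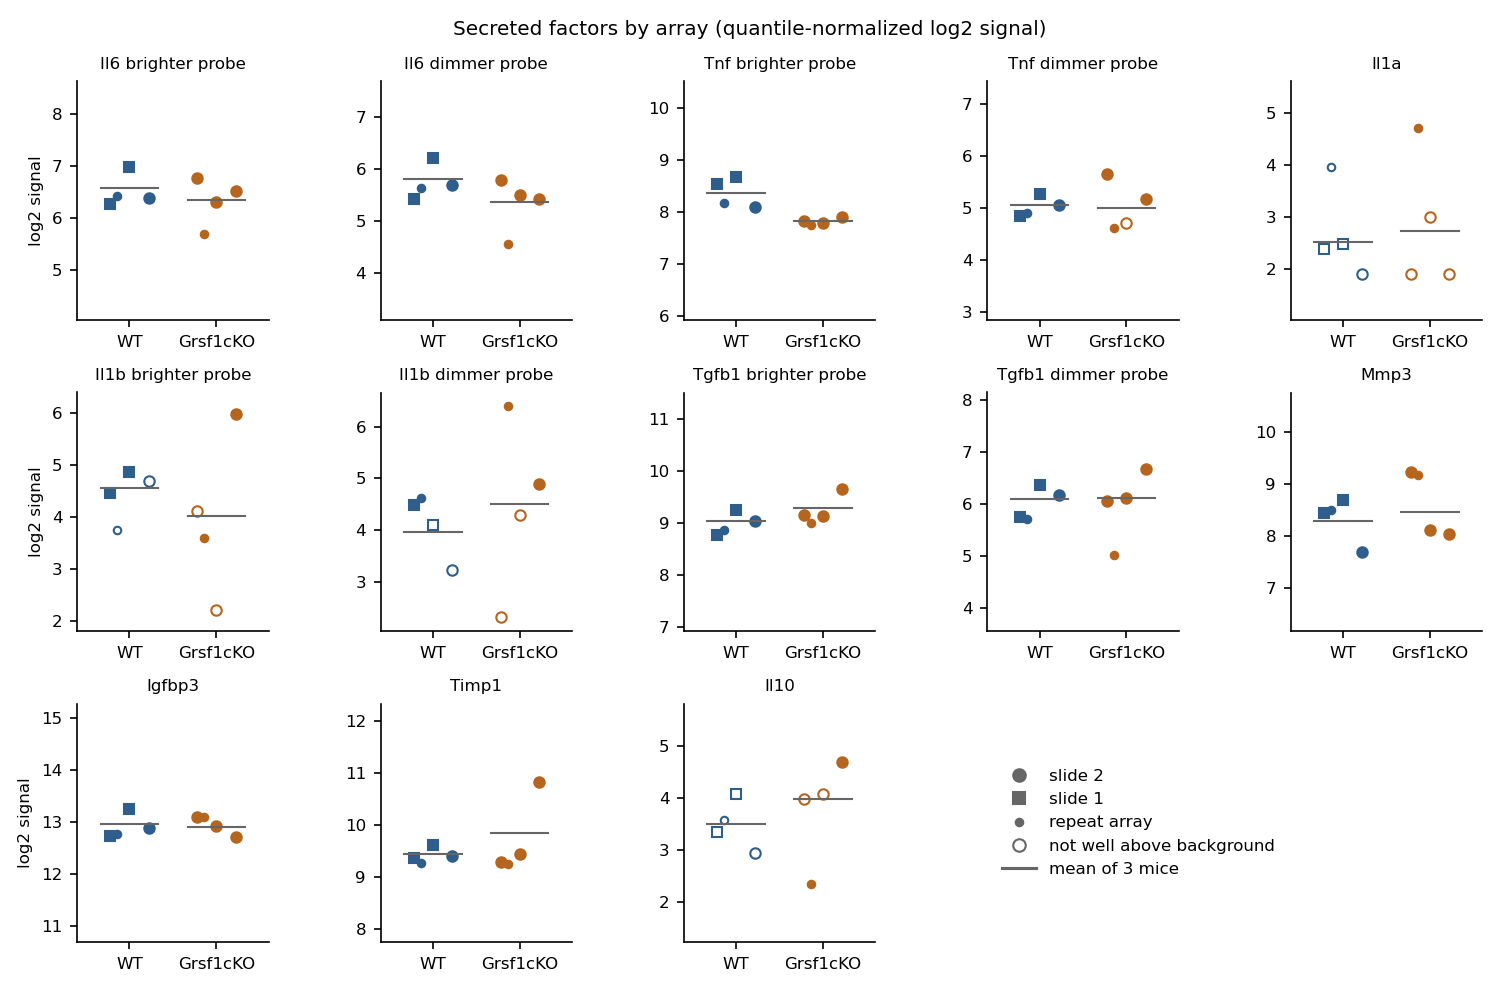
Quantile-normalized log2 signal of the 13 probes of the secreted factors on each of the 8 arrays, with squares for slide 1, circles for slide 2, small circles for repeat arrays, open symbols where the probe was not well above background, and a bar at the mean of the 3 mice. Every panel spans the same log2 range. The brighter *Tnf* probe is the only one whose arrays separate by genotype on all 8 arrays, and *Timp1* has 1 high mouse, Grsf1cKO 3, at 10.82.

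Among the cytokines, the brighter probe of tumor necrosis factor (*Tnf*) separated the genotypes. TNF is a cytokine made mainly by macrophages that activates NF-kappaB and has been linked to loss of muscle mass. The log2 signal of this probe was 7.78, 7.78 and 7.90 in Grsf1cKO mice 1, 2 and 3, and 8.35, 8.67 and 8.08 in WT mice 1, 2 and 3. All 3 Grsf1cKO mice lay below all 3 WT mice. The log2 fold change was -0.55 (standard error 0.160, 95% interval -0.94 to -0.16, adjusted p = 0.996 from limma), a WT level 1.46-fold that of Grsf1cKO, and the exact permutation p was 0.1. Slide moved with this value. Within WT 1 the array on slide 1 gave 8.54 and the repeat on slide 2 gave 8.16, WT 2 on slide 1 gave 8.67, and WT 3 on slide 2 gave 8.08. The arrays of slide 2 alone still separated, at 7.74 to 7.90 in Grsf1cKO and 8.08 to 8.16 in WT mice, with a log2 fold change of -0.30. A model with slide as a block gave -0.33. The dimmer *Tnf* probe did not follow the brighter one. It gave 5.13, 4.70 and 5.17 in Grsf1cKO mice and 4.87, 5.26 and 5.06 in WT mice, so that the genotypes overlapped, and it was below the background limit in Grsf1cKO 2. Its log2 fold change was -0.06 (95% interval -0.48 to 0.35, adjusted p = 0.998 from limma) over all arrays, and the first arrays gave 0.12.

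Interleukin 6 (*Il6*), which signals through gp130 and STAT3 and is among the most abundant products of senescent fibroblasts, was well above background on all 8 arrays with both probes. The brighter probe gave 6.23, 6.30 and 6.52 in Grsf1cKO mice 1, 2 and 3, and 6.35, 6.98 and 6.39 in WT mice 1, 2 and 3. The genotypes overlapped, with a log2 fold change of -0.22 (95% interval -0.70 to 0.25, adjusted p = 0.996 from limma). The dimmer probe gave 5.18, 5.50 and 5.41 in Grsf1cKO mice and 5.52, 6.21 and 5.69 in WT mice. Here all Grsf1cKO mice lay below all WT mice, by a margin set by the neighboring values of Grsf1cKO 2 and WT 1, and the log2 fold change was -0.44 (95% interval -0.93 to 0.04, adjusted p = 0.996 from limma, exact permutation p = 0.1). This order rested on the repeat arrays. That of Grsf1cKO 1 gave 5.69 and 4.56 for the brighter and the dimmer probe, whereas the first array of the same mouse gave 6.77 and 5.79. For the dimmer probe the first array of WT 1, at 5.42, also lay below Grsf1cKO 2, and its repeat at 5.63 lay above. Without the repeat arrays the value was -0.01 for the brighter and -0.20 for the dimmer probe, and the genotypes overlapped for both. The value of the brighter probe also moved to -0.019 without WT 2, -0.060 on slide 2, -0.028 with 75th percentile scaling and -0.10 with normexp background correction. That of the dimmer probe was -0.25 without WT 2, -0.22 with 75th percentile scaling and -0.10 with normexp. The unnormalized signal of the brighter probe was 124 on the first and 117 on the repeat array of Grsf1cKO 1. That of the dimmer probe was 59.6 on the first and 72.4 on the repeat array, so that it was higher on the repeat array before normalization and lower, by 1.23 on the log2 scale, after it.

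Il6, Tnf and Mmp3 are given with a stretch of the sequence before their start, from RefSeq promoters of GRCm38.p6, as 1 example of each of the 3 short motifs searched. NF-kappaB and AP-1 are factors of the secretory program, while the TATA box is a general promoter element. The capitals mark the match to the NF-kappaB (kappaB) consensus in Il6, to the TATA box TATAAA in Tnf, and to the AP-1 motif TGANTCA in Mmp3. The stretches lie at chr5:30013055-30013094 on the plus strand for Il6, chr17:35202014-35202053 on the minus strand for Tnf, and chr9:7445760-7445799 on the plus strand for Mmp3, each written 5′ to 3′ along its gene.
Il6: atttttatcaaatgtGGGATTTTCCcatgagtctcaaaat
Tnf: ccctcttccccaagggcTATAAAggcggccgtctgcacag
Mmp3: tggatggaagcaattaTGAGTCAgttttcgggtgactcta

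Windows of 300 bases, from 250 before to 50 after the start, were found for 8 of the 9 genes, all but *Il10*, and were searched on both strands. TATAAA was present for 4 of them, *Tnf*, *Il1a*, *Il1b* and *Mmp3*, and in 13.6% of all 32841 windows. TGANTCA was present for *Il6*, *Il1a* and *Mmp3*, and in 7.81% of all windows. The kappaB consensus was present for *Il6* and in 4.51% of all windows. The windows of *Tgfb1*, *Igfbp3* and *Timp1* held none of these letters. A match is a description of the sequence and says nothing about binding in these muscles.

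Interleukin 1 alpha and beta and interleukin 10 lay at the limit of the arrays. IL-1 alpha and IL-1 beta are inflammatory cytokines that share a receptor, and IL-10 restrains inflammatory macrophages. The probe of *Il1a* was well above background on 1 of 8 arrays, the repeat array of Grsf1cKO 1, where its unnormalized signal was 77.6 against 3.24 on the first array of that mouse. No fold is given for it, because no mouse had it above background on all its arrays. The brighter *Il1b* probe was above background on 2 of 4 arrays of each genotype. It gave 3.87, 2.22 and 5.99 in Grsf1cKO mice and 4.11, 4.88 and 4.69 in WT mice, so that Grsf1cKO 2 was the lowest and Grsf1cKO 3 the highest. The dimmer *Il1b* probe, likewise above background on 2 of 4 arrays of each genotype, gave 4.36, 4.30 and 4.90 in Grsf1cKO mice and 4.56, 4.11 and 3.24 in WT mice. The value of Grsf1cKO 1 averages 2.32 on its first and 6.39 on its repeat array, where the unnormalized signal went from 3.66 to 156. *Il10* was well above background on 2 of 4 Grsf1cKO arrays, those of Grsf1cKO 3 and the repeat of Grsf1cKO 1, and on 0 of 4 WT arrays. Its log2 signal was 4.70 in Grsf1cKO 3 and at most 4.09 in each other mouse. No fold is given, because the Grsf1cKO mean of 3.98 lay below the lowest signals called above background on the WT arrays, which averaged 4.39.

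**Figure D2:**
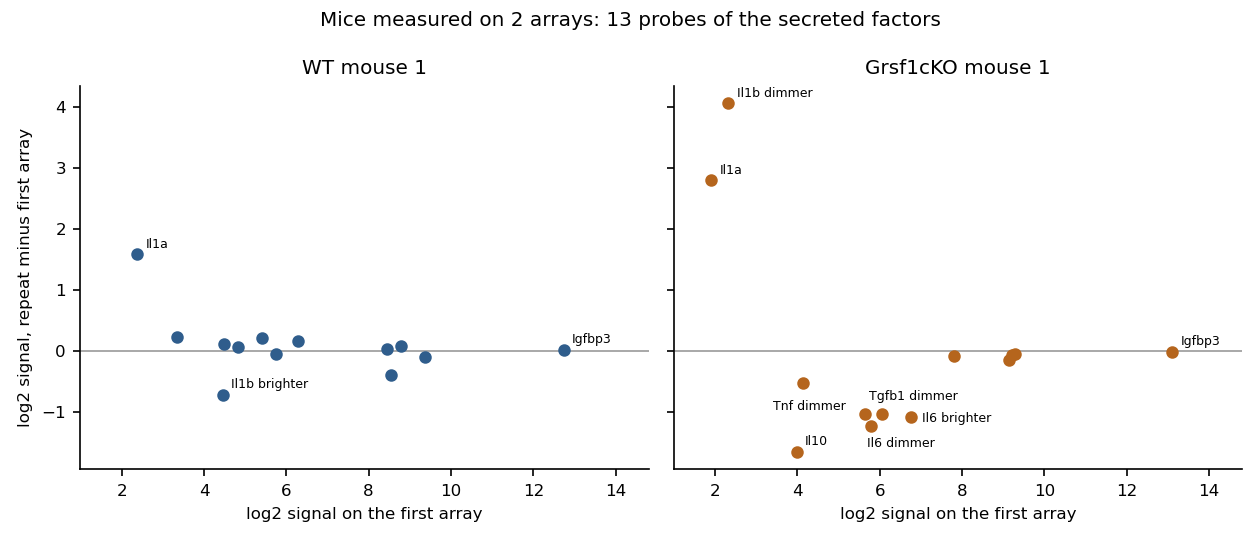
Log2 signal on the repeat array minus that on the first array (vertical axis) against the log2 signal on the first array (horizontal axis) for the 13 probes of the secreted factors, in WT mouse 1 (left) and Grsf1cKO mouse 1 (right). Probes with a log2 signal over 7 on the first array differ by -0.14 to -0.0063 in Grsf1cKO 1, whereas dimmer probes differ by -1.64 to 4.06 there, and the brighter *Tnf* probe differs by -0.38 in WT 1.

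In Grsf1cKO 1, whose repeat array stood apart, repeat and first array differed mainly at dim probes. For probes with a log2 signal over 7 on the first array, namely those of *Igfbp3*, *Timp1*, *Mmp3*, and the brighter ones of *Tgfb1* and *Tnf*, repeat and first array of Grsf1cKO 1 differed by -0.14 to -0.0063. For the dimmer *Tgfb1* probe they differed by -1.03, for the dimmer *Tnf* probe by -1.03, for *Il10* by -1.64, and for the dimmer *Il1b* probe by 4.06. In WT 1, whose 2 arrays lay on different slides, the largest difference of a tested probe was -0.38, for the brighter *Tnf* probe. The dim tested probes differed less there, by 0.16 and 0.22 for the brighter and the dimmer *Il6* probe. The difference was 0.072 for the dimmer *Tnf* and -0.038 for the dimmer *Tgfb1* probe.

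Transforming growth factor beta 1 (*Tgfb1*), which drives collagen synthesis by fibroblasts, gave 9.07, 9.14 and 9.65 with the brighter probe in Grsf1cKO mice 1, 2 and 3, and 8.82, 9.24 and 9.03 in WT mice 1, 2 and 3. Only Grsf1cKO 3 lay above all WT mice. The log2 fold change was 0.26 (95% interval -0.22 to 0.73, adjusted p = 0.996 from limma, exact permutation p = 0.4), and it was 0.08 without Grsf1cKO 3 and 0.15 without WT 1. The dimmer probe gave 5.53, 6.12 and 6.67 in Grsf1cKO mice and 5.74, 6.37 and 6.17 in WT mice. Its log2 fold change was 0.02 (95% interval -0.76 to 0.80, adjusted p = 0.998 from limma), and it was -0.27 without Grsf1cKO 3, -0.16 without WT 1, 0.31 without Grsf1cKO 1 and 0.18 without the repeat arrays.

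TIMP-1 (*Timp1*), a secreted inhibitor of matrix metalloproteinases, had the widest gap between a single mouse and the rest among the tested member probes. Its log2 signal was 9.27, 9.44 and 10.82 in Grsf1cKO mice 1, 2 and 3, and 9.32, 9.62 and 9.39 in WT mice 1, 2 and 3. Grsf1cKO 3 lay above every other mouse, while Grsf1cKO 1 and 2 lay within or just below the WT range. The log2 fold change of 0.40 (standard error 0.414, 95% interval -0.61 to 1.41, adjusted p = 0.996 from limma) therefore rested on 1 mouse, and without it the value was -0.09. Stromelysin 1 (*Mmp3*), a protease that degrades proteoglycans and other matrix proteins, had a different high mouse. It gave 9.20, 8.11 and 8.04 in Grsf1cKO mice and 8.46, 8.68 and 7.69 in WT mice. Grsf1cKO 1 was highest, with 9.23 on its first and 9.17 on its repeat array, and WT 3 was lowest. The log2 fold change was 0.17 (95% interval -0.81 to 1.15, adjusted p = 0.998 from limma), -0.21 without Grsf1cKO 1, -0.13 without WT 3 and 0.36 on slide 2.

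IGFBP-3 (*Igfbp3*), a carrier of insulin-like growth factors in the circulation, gave 13.10, 12.92 and 12.72 in Grsf1cKO mice and 12.75, 13.25 and 12.89 in WT mice. The genotypes overlapped throughout, and the log2 fold change was -0.05 (95% interval -0.46 to 0.36, adjusted p = 0.998 from limma).

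**Figure D3:**
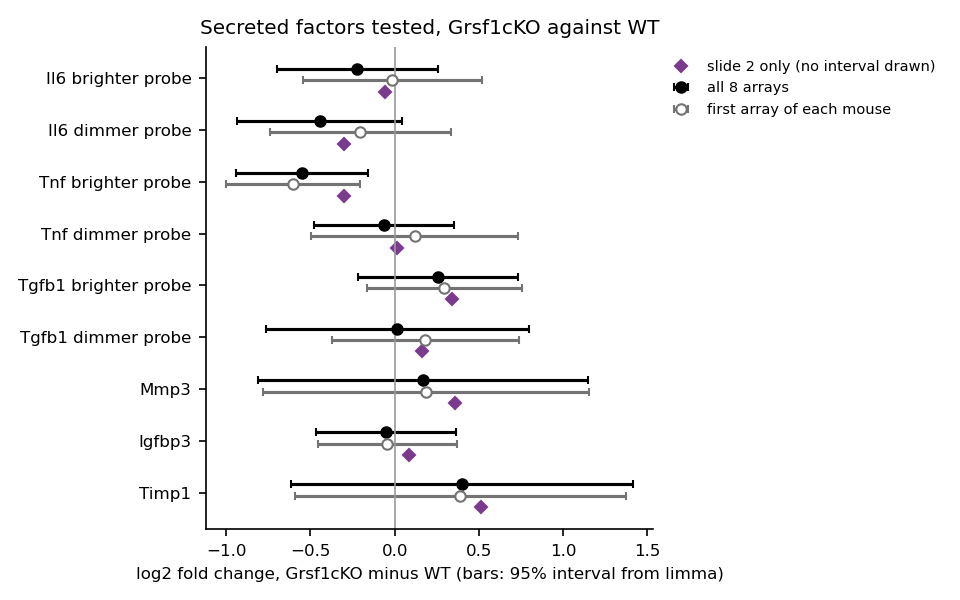
Log2 fold change, Grsf1cKO minus WT, of the 9 tested probes over all 8 arrays (filled circles) and on the first array of each mouse (open circles), each with its 95% interval from limma, and on the arrays of slide 2 alone (diamonds, drawn without an interval). Only the brighter *Tnf* probe has intervals that leave out 0, and its value moves from -0.55 over all arrays to -0.30 on slide 2.

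The receptors and binding partners of these factors were measured with 15 genes, all of them tested. In limma 0 of 15 had an unadjusted p under 0.05, 7 had a value above 0, and their median log2 fold change was -0.02, against -0.03 over all 38888 tested probes. *Il10ra*, which encodes the ligand-binding chain of the IL-10 receptor on leukocytes, had the largest difference, 0.34 (95% interval -0.55 to 1.22, adjusted p = 0.996 from limma). It rested on Grsf1cKO 3 at 8.97, since the other 5 mice lay between 7.57 and 8.03, and without that mouse the value was -0.05. *Il1r2*, the decoy receptor that binds IL-1 without signaling, was the only gene of this list whose genotypes did not overlap over all arrays. It gave 7.66, 7.65 and 7.64 in Grsf1cKO mice and 8.16, 8.03 and 7.69 in WT mice, a log2 fold change of -0.31 (95% interval -0.64 to 0.02, adjusted p = 0.996 from limma). Its genotypes overlapped without the repeat arrays.

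Genes that process, store or restrain the factors, such as those of converting enzymes, latent TGF-beta binding proteins and mRNA-degrading proteins, numbered 25, of which 22 were tested. The value was above 0 for 21 of the 22, where 16519 of all 38888 tested probes had a value above 0, but most were small, with a median of 0.09. This count leaned in part on Grsf1cKO 3, the highest mouse for 40.9% of the 22 genes and for 16.3% of all tested probes. Grsf1cKO 2 was the highest for 27.3% of the genes and for 13.8% of all tested probes. Without Grsf1cKO 3 the values of *Casp1*, *Casp4*, *Pycard*, *Furin*, *Ltbp1*, *Ltbp2* and *Nrros* also fell below 0. One gene had an unadjusted p under 0.05 and more signal in Grsf1cKO. It was *Zc3h12a*, which encodes regnase-1, a nuclease that degrades *Il6* and other cytokine mRNAs. Its log2 signal was 6.64, 6.43 and 6.76 in Grsf1cKO mice and 6.31, 6.13 and 6.20 in WT mice, a log2 fold change of 0.40 (95% interval 0.11 to 0.69, adjusted p = 0.996 from limma). The mice of the genotypes did not overlap over all arrays but did on the first arrays, where the value was 0.25, and normexp background correction gave 0.20. *Nlrp3*, the inflammasome sensor, was the 1 gene with a value below 0, at -0.27, which was -0.034 without Grsf1cKO 1, -0.46 without Grsf1cKO 2 and -0.018 with 75th percentile scaling.

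Genes that TNF, IL-1, IL-6 or TGF-beta are known to induce made a list of 17, of which 16 were tested. An unadjusted p under 0.05 was found for 2 genes with more signal in Grsf1cKO and for 0 with less, the median was 0.03, and 10 values lay above 0. Over all tested probes 1.29% and 2.96% had such a p with more and with less signal in Grsf1cKO, and 16519 of 38888 values lay above 0. Grsf1cKO 3 was the highest mouse for 56.2% of the 16 genes, against 16.3% of all tested probes. Vascular cell adhesion molecule 1 (*Vcam1*), an endothelial adhesion protein, gave 10.02, 10.30 and 10.48 in Grsf1cKO mice and 9.84, 9.93 and 9.96 in WT mice. All Grsf1cKO mice lay above all WT mice, with a log2 fold change of 0.36 (95% interval 0.03 to 0.69, adjusted p = 0.996 from limma). Serum amyloid A3 (*Saa3*), an acute phase protein, gave 5.78, 5.75 and 6.09 in Grsf1cKO mice and 5.36, 5.04 and 5.11 in WT mice. Its log2 fold change was 0.70 (95% interval 0.36 to 1.04, adjusted p = 0.996 from limma), but on the first arrays it was 0.42 and the genotypes overlapped, and with normexp background correction it was 0.26.

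**Figure D4:**
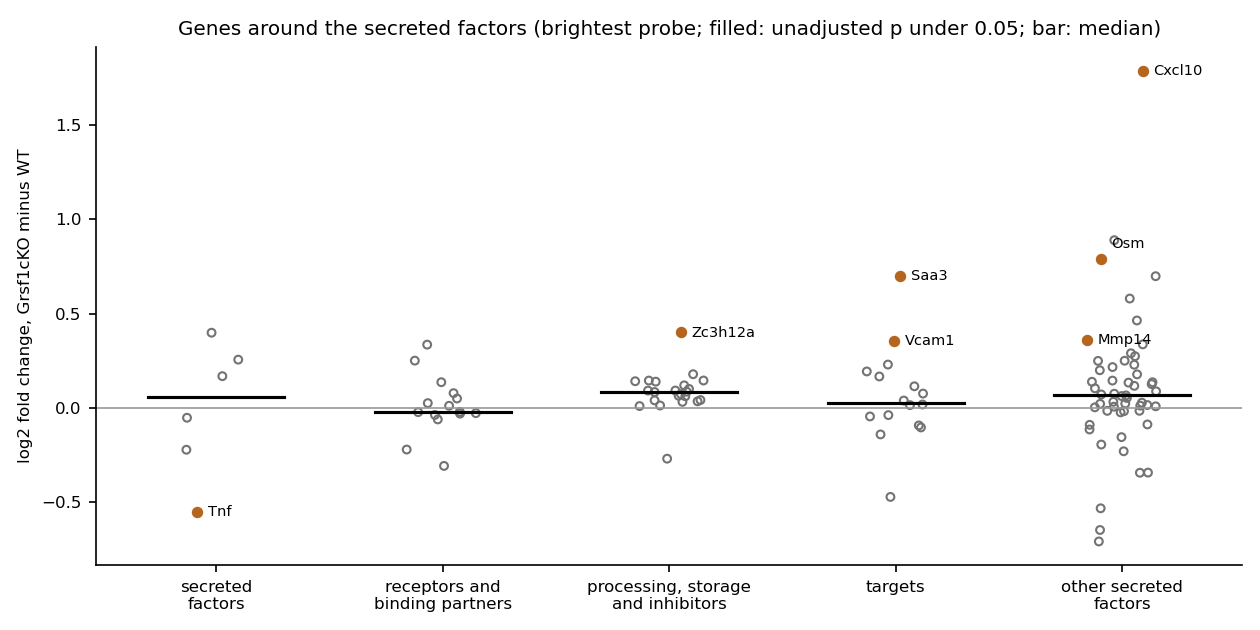
Log2 fold change, Grsf1cKO minus WT, of the tested genes among the secreted factors and 4 lists around them, with the brightest probe for each gene, filled and named where the unadjusted p of limma was under 0.05, and a bar at the list's median. The medians lie between -0.02 and 0.09, and *Cxcl10*, at 1.79, stands above the other genes.

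Of 67 other secreted factors of senescent cells, 53 were tested. In limma 3 had an unadjusted p under 0.05 with more signal in Grsf1cKO and 0 with less, 38 had a value above 0, and the median was 0.07. The shares over all tested probes were again 1.29% and 2.96%, and 16519 of their 38888 values lay above 0. Grsf1cKO 3 was the highest mouse for 39.6% of the 53 genes and for 16.3% of all tested probes. The 3 genes were *Cxcl10*, *Osm* and *Mmp14*. *Cxcl10*, a chemokine induced by interferons that attracts T cells, had 10.05, 8.94 and 11.08 in Grsf1cKO mice, all above the WT mice at 8.16, 8.32 and 8.22, and a log2 fold change of 1.79 (95% interval 0.54 to 3.04, adjusted p = 0.996 from limma). Oncostatin M (*Osm*), a cytokine of the IL-6 family, gave 5.08, 4.97 and 5.62 in Grsf1cKO mice and 4.84, 4.38 and 4.08 in WT mice. The genotypes did not overlap, and the log2 fold change was 0.79 (95% interval 0.17 to 1.41, adjusted p = 0.996 from limma). The probe was above background in 2 of 3 WT mice, and normexp background correction gave 0.19. *Mmp14*, a membrane-bound metalloproteinase, gave 8.96, 9.30 and 9.31 in Grsf1cKO mice and 8.85, 8.71 and 8.93 in WT mice, with a log2 fold change of 0.36, and the genotypes overlapped on the first arrays. None of these 3 genes met the criteria for a call in limma.

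The other members of the same gene families were examined next. Of the interleukin 6 family 8 genes were tested and *Osm* was the 1 with an unadjusted p under 0.05, and of 10 tested matrix metalloproteinases it was *Mmp14*. In the other families 0 genes had such a p. Over all tested probes 1.29% had such a p with more signal in Grsf1cKO and 2.96% with less. Of the 10 metalloproteinases 9 had a value above 0, with a median of 0.16, where 16519 of all 38888 tested probes had a value above 0. The values of *Timp2*, *Timp3* and *Timp4* were -0.02, -0.07 and -0.13, beside the 0.40 of *Timp1*, and that of *Timp3* was -0.0068 without Grsf1cKO 1 and -0.15 without Grsf1cKO 2. The other 5 tested IGFBP genes had values from -0.02 to 0.07, with *Igfbp2* at the upper end. *Tgfb2* and *Tgfb3* had 0.18 and 0.07, beside 0.26 for *Tgfb1*, and *Tgfb3* was -0.047 on slide 2. The value of *Tgfb2* was 0.072 on slide 2, 0.11 without WT 1, 0.073 without WT 2 and 0.35 without WT 3. In the interleukin 1 family *Il33*, an alarmin, had 0.05, and in the interleukin 10 family *Il19* had -0.49. This last value was -0.21 on the first arrays and -0.77 with the repeat arrays in their place, -0.14 with 75th percentile scaling and -0.17 with normexp background correction. Of 9 regulators of senescence, *Cdkn1a*, which encodes the cell cycle inhibitor p21, was the 1 gene with an unadjusted p under 0.05. Its log2 signal was 12.09, 11.83 and 12.42 in Grsf1cKO mice and 11.26, 11.74 and 11.49 in WT mice, a log2 fold change of 0.61 (95% interval 0.14 to 1.09, adjusted p = 0.996 from limma) with no overlap of the genotypes. *Cdkn2a*, the gene of p16 and p19Arf, had 6.97, 7.33 and 7.95 in Grsf1cKO mice and 8.05, 6.85 and 6.38 in WT mice, so that its genotypes overlapped.

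The signal of other cell types moved with some of these values, above all in Grsf1cKO 3. It had the highest *Timp1*, *Tgfb1*, *Cxcl10*, *Osm*, *Il10ra*, *Zc3h12a*, *Vcam1*, *Saa3*, *Mmp14* and *Cdkn1a*. This mouse was singled out after its *Timp1* value was seen. It was the highest of the 6 mice for 11 of 12 macrophage markers, against the 16.3% of all tested probes with a value in every mouse. The log2 of the summed signal of the 12 macrophage markers, in which bright markers weigh most, was 16.58 in Grsf1cKO 3. It was 16.04 to 16.08 in the other Grsf1cKO mice and 16.06 to 16.33 in WT mice. *Cd68*, a lysosomal glycoprotein of macrophages, was 13.30 in Grsf1cKO 3 and 11.57 to 11.96 in the other mice. *Lyz2*, the lysozyme gene of myeloid cells, was 11.33 there and 9.52 to 10.28 elsewhere. The exception was *Itgam*, which was highest in WT 2. All 12 macrophage markers were well above background in every mouse, and 0 of 12 had an unadjusted p under 0.05 between genotypes. WT 2, the mouse with the highest signal of both *Il6* and both *Tnf* probes, had the macrophage sum next to the highest. In Grsf1cKO 3, with the highest macrophage sum, the brighter *Tnf* probe was at 7.90, below every WT mouse. The brighter *Il6* probe was at 6.52, next to the highest after WT 2. The dimmer probes of this mouse had the reverse order. That of *Tnf* was at 5.17, next to the highest after WT 2, and that of *Il6* at 5.41, below every WT mouse. The part of macrophage RNA in these values was not tested.

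The markers of other cells gave the following sums on the log2 scale. For 8 neutrophil markers, 5 of them above background in every mouse, the sum was 10.65 in Grsf1cKO 3, 9.12 and 9.13 in the other Grsf1cKO mice, and 9.15 to 10.19 in WT mice. Among the tested markers *Retnlg* had the largest difference, -0.37, and the neutrophil markers *Ngp*, *Ltf* and *Cxcr2* were not tested because too few mice had them above background. Of 9 T and NK cell markers 6 had a value above 0, where 16519 of all 38888 tested probes did, and their median was 0.17. Their sum was 12.35 to 12.63 in Grsf1cKO and 11.83 to 12.98 in WT mice. *Cd8a* went the other way and had the largest difference, -1.29, at a signal near the background limit. This value was -0.13 with normexp background correction, -0.63 without Grsf1cKO 2 and -1.90 without Grsf1cKO 3. For 5 B cell markers it was 10.29 to 10.53 and 10.32 to 10.68, with -0.40 for *Ms4a1*. For 5 mast cell markers it was 13.22 to 13.72 and 13.29 to 13.50, with 0.13 for *Cma1* (0.067 without Grsf1cKO 2), and all 5 were highest in Grsf1cKO 2. For 10 markers of fibroblasts and fibro-adipogenic progenitors it was 18.66 to 18.83 and 18.56 to 18.76, with 0.36 for *Col3a1*, which was 0.12 without Grsf1cKO 3 and 0.56 without WT 1. Of 8 endothelial markers only 2 had a value above 0, and their median was -0.05. The sums of these 8 were 15.24 to 15.38 and 15.24 to 15.39, with 0.19 for *Vwf* (0.094 without WT 3). Those of 6 adipocyte markers were 17.07 to 17.52 and 16.83 to 17.93, with -0.71 for *Cfd*, which was -1.33 without WT 3, -0.33 without WT 2 and -0.33 on slide 2. Those of 5 satellite cell markers were 12.57 to 12.81 and 12.74 to 12.98, with -0.25 for *Myod1*, which was -0.47 without Grsf1cKO 1, -0.16 without Grsf1cKO 2 and -0.12 without Grsf1cKO 3. *Myf5*, a defining satellite cell gene, was not tested. In the skeletal muscle list *Myh2* had the largest difference, 0.19, which was 0.13 without Grsf1cKO 3 and 0.077 with 75th percentile scaling. In all these lists 0 tested genes had an unadjusted p under 0.05 in limma, and for each sum the ranges of the genotypes overlapped.

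**Figure D5:**
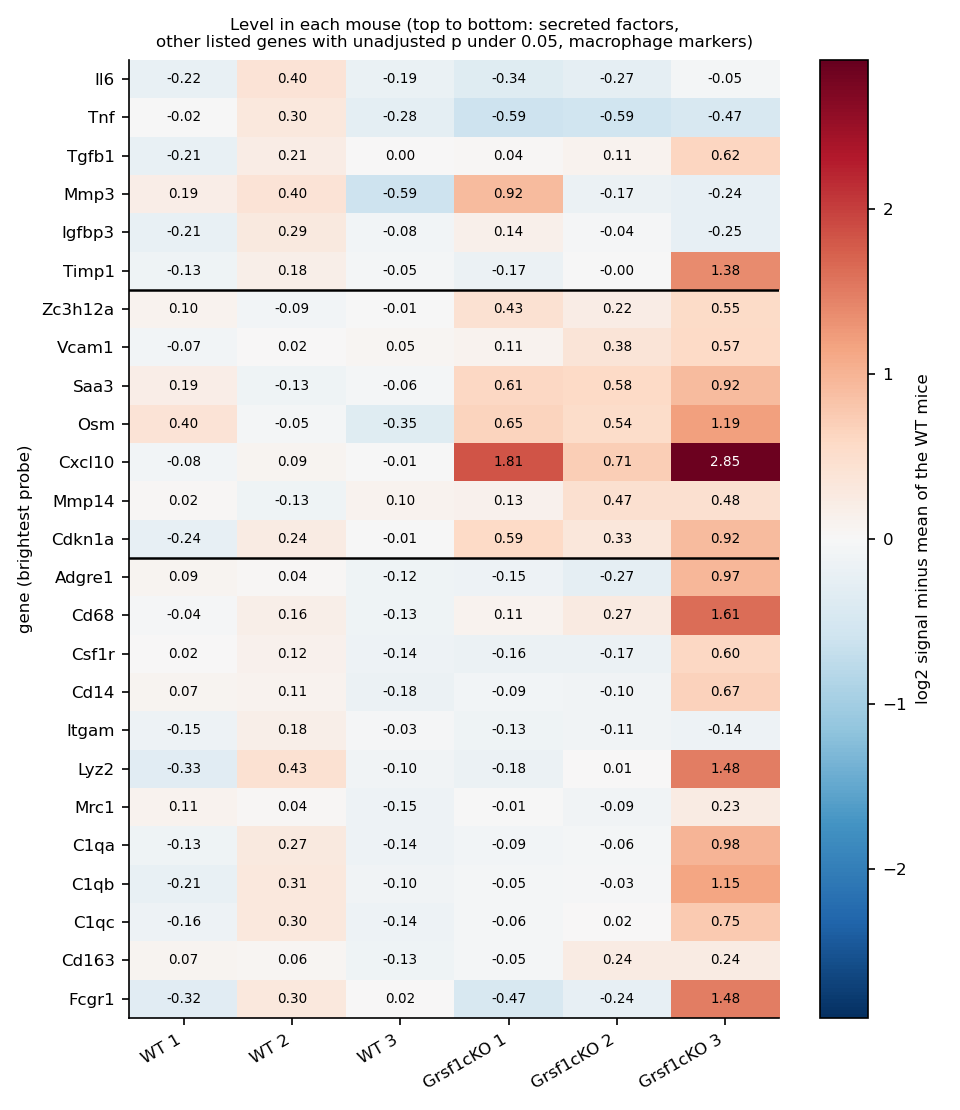
Log2 signal in each mouse minus the mean of the 3 WT mice, from the brightest probe, for the 6 tested secreted factors (top), the other listed genes with an unadjusted p under 0.05 in limma (middle) and the 12 macrophage markers (bottom). In Grsf1cKO 3, *Timp1* stands 1.38, *Cd68* 1.61 and *Cxcl10* 2.85 above the WT mean, while *Tnf* is below the WT mean in all 3 Grsf1cKO mice.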

How the data were processed

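Muscle RNA of 6 mice, labeled with Cy3, was measured on 8 Agilent arrays of 1 color. The authors deposited the processed signal intensity of each spot from Agilent Feature Extraction 12.0.3.1, already corrected for background, and a table of z-scores; each deposited score is the log2 signal centered and scaled within its array, within 0.005. The methods state quantile normalization, z-scores and a z-test. Here the 59305 non-control spots were used; spots flagged as non-uniform or population outliers were set to missing, log2 intensities of the 8 arrays were quantile normalized, and spots of a probe and arrays of a mouse were averaged. A probe counted as above background in a mouse if flagged so on all its arrays. Probes above background in at least 3 mice, with at least 2 values per genotype, were fitted in limma 3.58.1 (R 4.3.3), and genotype was the single term. Differences are on the log2 scale. Precision is limited by the number of arrays and mice; 0 spots were saturated. Nothing states whether the repeats came from new RNA, and they were averaged within a mouse.

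Probes were named through RefSeq accessions (GRCm38.p6), which gave 32994 of 56605 probes a symbol. Beyond the members, genes were named if their unadjusted p was under 0.05 or, where a list had none, if their difference was the largest; *Il1r2*, *Nlrp3*, *Timp2* to *Timp4*, *Tgfb2*, *Tgfb3*, *Cdkn2a*, *Lyz2* and other further genes were chosen after their values were seen. The members and lists were chosen with earlier results of these data known. One further gene was left out of the lists and is not reported here. The script was checked on simulated data. Alternatives covered scaling, background correction, filter, repeat arrays, slide, replicate number, variance trend, left-out mice and a z-test on z-scores. That z-test divided the difference of z-scores by its standard error over mice, with p from a normal distribution. It kept the limma fold changes and the criteria for a call. The z-ratio, mean z-score and ANOVA filters of the methods were not applied.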

Additional observations from a re-analysis of the deposited data

How the results depend on the processing

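The count of 0 secreted factors called held under all 18 alternatives and with any probe of a gene in place of the brightest. The count over all probes, 3, was 1 with the replicate number as a block (replicate block) and 2 to 4 with a mouse left out. With the z-test on z-scores, which is not the full procedure of the methods, it was 380. Whether equal numbers pair mice is not known. The deviations of Grsf1cKO and WT mice with the same number correlated at 0.23, 0.10 and 0.10, and each correlated best with its own number. These weak values cannot settle a pairing. Under the block *Grsf1* had an adjusted p of 0.25 in limma. The smallest adjusted p of any member probe over all limma settings was 0.774. The brighter *Tnf* probe had values from -0.69 (without WT 3) to -0.30 (slide 2 only).

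Of 152 member values under alternatives 16 changed sign, none of them called. The dimmer *Tnf* probe had 0.18 with 75th percentile scaling, 0.057 with normexp, 0.12 on first arrays, 0.016 on slide 2, and -0.16 to 0.086 with a mouse left out. The dimmer *Tgfb1* probe had -0.15 with repeat in place of first arrays, and -0.27 (without Grsf1cKO 3) to 0.31 with a mouse left out. *Igfbp3* had 0.086 on slide 2, 0.025 with slide as a block, and -0.16 to 0.093 with a mouse left out. With a mouse left out *Mmp3* had -0.21 (without Grsf1cKO 1) to 0.37, and *Timp1* -0.089 (without Grsf1cKO 3) to 0.69. Of 519 values of the other genes examined this way, *Grsf1* among them, 20 changed sign. With a mouse left out the ranges were -0.050 to 0.64 for *Il10ra*, -0.042 to 0.16 for *Il33*, -0.064 to 0.17 for *Igfbp2*, -0.75 to 0.066 for *Retnlg*, -0.66 to 0.075 for *Ms4a1*, -0.097 to 0.063 for *Timp2*, -0.35 to 0.044 for *Timp4*, -0.030 to 0.16 for *Tgfb3*, -0.033 to 0.80 for *Cdkn2a* and -0.083 to 0.75 for *Lyz2*. *Il33* had -0.014 and *Timp2* 0.079 with the z-scores, *Retnlg* 0.060 and *Tgfb3* -0.047 on slide 2, and *Tgfb3* -0.0023 with slide as a block. The cause was not tested. Signal over background limits *Il1a*, *Il1b* and *Il10*. The files hold no mean signal, so normexp used the median signal.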
